A study of Mus musculus with 15 samples.

Results

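A set of 10 genes of simple epithelia was followed in embryonic stem (ES) cells of the mouse and in embryoid bodies, the aggregates in which such cells differentiate. They are the keratins Krt7, Krt8, Krt18 and Krt19, the adhesion molecules Cdh1 and Epcam, the claudins Cldn4 and Cldn7, and the regulators Esrp1 and Grhl2. The members were all non-control probes whose gene name in the scanner files was 1 of these symbols. This rule gave 14 of the 39429 probes on the array and found 10 of the 10 genes, among 30818 gene names on the array. Krt8, Cldn4, Esrp1 and Grhl2 had 2 probes each, and the brighter of the pair stands for the gene in every count. The samples were 15 single-colour Agilent arrays of Cy3-labelled total RNA in 4 groups. Control ES cells (3 arrays, replicates 2 to 4) and control EB9 embryoid bodies (4 arrays) carry the treatment label "none", and the design text names the ES control shCtr. ES cells (4 arrays) and EB9 embryoid bodies (4 arrays) of the other groups were depleted of Cbx7, a chromodomain subunit of Polycomb repressive complexes, and carry the name KD33. The labels do not give the ES line, whether KD33 is 1 clone, or what EB9 stands for. Replicates are titled biological replicates, and no label says that they were separate cultures, so the p-values measure the spread between these samples only.

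Keratins form the intermediate filaments of epithelial cells as pairs of a type II and a type I chain; Krt8 and Krt7 are type II, and Krt18 and Krt19 are type I. Krt8 and Krt18 are the keratins that the early embryo makes before others, in trophectoderm and later in endoderm. Cdh1 (E-cadherin) joins cells at adherens junctions, Epcam is an adhesion protein of the lateral membrane, and claudins seal tight junctions. ES cells are themselves an epithelium-like population that makes Cdh1 and Epcam. Esrp1 directs epithelial splicing patterns and Grhl2 is a transcription factor that activates junction genes; the repressors of the Snai and Zeb families act against this programme.

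A level is the log2 of the background-corrected signal minus the log2 of the same array's 75th percentile signal, so 0 is the 75th percentile of that array. Levels are not compared between genes, because probes differ in brightness. Each comparison was fitted in limma on all 27248 probes that lay above background on at least 3 arrays of a group. A gene counted as changed where its p, adjusted by the Benjamini-Hochberg method over those probes, was under 0.05. All 14 member probes passed the background filter. Of these, 13 lay well above background on 15 of 15 arrays. The dimmer Grhl2 probe did so on 3 of 3 control ES arrays, 1 of 4 KD33 ES arrays, 1 of 4 control EB9 arrays and 0 of 4 KD33 EB9 arrays.

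Probe sequences for the large keratin change and for the claudin that passed in both knockdown comparisons are shown, since they fix which stretch of a transcript was read. For Krt8 the line gives the second, dimmer probe, and for Krt19 and Cldn4 the one that stands for the gene. The array reads each gene through 60 bases. Positions are those in the scanner files (build mm9): chr15:101828827-101828886 on the minus strand for the second probe of Krt8, chr11:100002392-100002451 on the minus strand for Krt19, and chr5:135422135-135422194 on the minus strand for Cldn4. The lines give the probe as listed, 5′ to 3′.
Krt8, second probe: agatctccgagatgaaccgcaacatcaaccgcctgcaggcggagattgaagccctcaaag
Krt19: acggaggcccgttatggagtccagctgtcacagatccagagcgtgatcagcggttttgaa
Cldn4: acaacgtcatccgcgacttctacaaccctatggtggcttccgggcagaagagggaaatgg
The brighter Krt8 probe, which stands for the gene, lies at chr15:101827138-101827197 on the minus strand, and the second Cldn4 probe at chr5:135421347-135421406 on the minus strand. Krt7 was read at chr15:101253718-101253777 and Krt18, the neighbour of Krt8, at chr15:101862341-101862400, both on the plus strand. The Cdh1 probe lies at chr8:109193812-109193871 on the plus strand, that of Cldn7 at chr11:69781255-69781314 on the plus strand, and that of Epcam spans chr17:88048972-88049800, more than its own length. Esrp1 was read at chr4:11260208-11260267 and chr4:11284629-11284688 on the minus strand, and Grhl2 at chr15:37293139-37293198 and chr15:37239426-37239485 on the plus strand. Exon and UTR annotation of these positions was not analysed here.

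Between 62.5% and 69.0% of features lay well above background on 14 arrays, and 75.4% on control EB9 replicate 2; no feature was saturated. The arrays lay on 4 slides, each with all 4 groups except slide 4, which held no ES control; each group kept 1 position on the slide, and the effects of position and of group cannot be told apart. Cbx7 itself was read by 2 dim probes. The brighter one averaged −4.47 ± 0.44 (SD, n = 3) in control ES cells, −4.59 ± 0.26 (n = 4) in KD33 ES cells, −4.81 ± 0.39 (n = 4) in control EB9 and −4.97 ± 0.20 (n = 4) in KD33 EB9. The other probe differed by −1.91 in ES cells (SE 1.23) and by −0.27 in EB9 (SE 1.14). On slides 1, 2 and 3 it read −6.30, −3.14 and −3.04 in control ES cells and −7.85, −4.44 and −4.61 in KD33 ES cells. It was lower with KD33 on each of these slides, and the fit did not include the slide. Neither probe passed the test for knockdown (limma adjusted p between 0.256 and 0.920), so this test does not show the depletion. Of 15 pluripotency markers, 15 lay above background on all control ES arrays and 14 were lower in control EB9. In these bulk samples, fewer cells of a type and less RNA per cell cannot be told apart.

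The 3 keratins Krt8, Krt18 and Krt19 rose steeply from ES cells to EB9, by 14.5-fold to 30.5-fold in controls, while Cdh1, Epcam, Cldn4 and Grhl2 fell by 1.73-fold to 5.98-fold. Cldn7 rose 1.97-fold, and neither Krt7 nor Esrp1 passed. The set did not move in 1 direction: 4 of the 10 were higher and 4 lower in control EB9, against 33.2% and 41.5% of all 21184 genes, and the median of the 10 was 0.07 against −0.14 over all genes. In a comparison that called 74.7% of all genes, 8 of 10 is close to the background. By 2-fold or more 6 of 10 changed, against 39.8% of all genes, and the groups did not overlap for 8 of 10, against 72.9%. In KD33 cells 3 were higher and 5 lower from ES cells to EB9, against 33.7% and 44.1% of all genes (77.9% in either direction). There 6 of 10 changed by 2-fold or more, against 41.7% of all genes, and 8 of 10 did not overlap, against 74.2%.

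**Figure D1:**
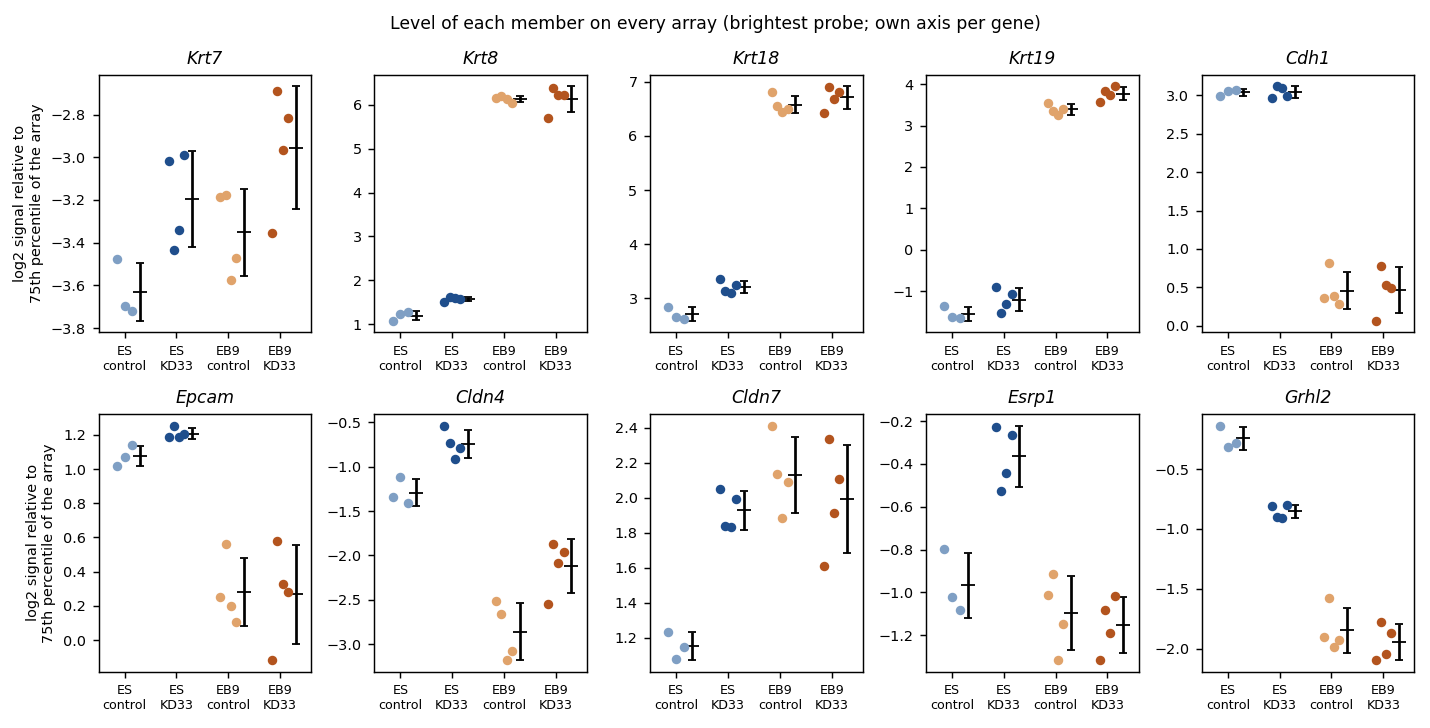
Level of each of the 10 genes on all 15 arrays, by its brighter probe, as log2 signal over the array's own 75th percentile; each panel has its own axis, points are arrays, and bars give the group mean ± SD. Krt8, Krt18 and Krt19 stand high in both EB9 groups, Cdh1, Epcam, Cldn4 and Grhl2 stand low there, and Krt7 overlaps between the stages.

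Krt8 was the type II keratin with the large change. Its brighter probe read 1.09, 1.23 and 1.28 in control ES cells, 1.51, 1.62, 1.60 and 1.58 in KD33 ES cells, 6.14, 6.19, 6.13 and 6.04 in control EB9, and 5.71, 6.37, 6.22 and 6.21 in KD33 EB9. Every EB9 array lay above every ES array, and every KD33 ES array lay above every control ES array. From ES cells to EB9 it rose by 4.92 in controls (SE 0.12, 30.4-fold, adjusted p = 4.69e-13) and by 4.55 in KD33 cells (SE 0.11, 23.4-fold, adjusted p = 4.17e-13). In ES cells KD33 raised it 1.30-fold (log2 0.38, SE 0.12, adjusted p = 0.0270). In EB9 the difference was 0.00 (95% interval −0.24 to 0.25), and KD33 EB9 replicate 1 was the lowest of the 8 EB9 arrays. The second probe gave like changes: 36.9-fold in control EB9 over control ES cells, and 1.41-fold for KD33 in ES cells (adjusted p = 0.00258).

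Krt18, the type I partner of Krt8, read 2.85, 2.66 and 2.62 in control ES cells and 3.35, 3.13, 3.10 and 3.25 in KD33 ES cells. Its EB9 levels were 6.81, 6.55, 6.45 and 6.50 in controls and 6.43, 6.90, 6.69 and 6.82 with KD33. The ES groups did not overlap each other, while the EB9 groups did. Krt18 rose by 3.86 from ES cells to EB9 in controls (SE 0.12, 14.5-fold, adjusted p = 3.40e-12) and by 3.50 with KD33 (SE 0.11, 11.3-fold, adjusted p = 3.54e-12). KD33 raised it 1.41-fold in ES cells (log2 0.50, SE 0.12, adjusted p = 0.00501), and in EB9 the difference was 0.13 (95% interval −0.10 to 0.37).

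Krt19, the smallest keratin and a type I chain, lay at −1.35, −1.62 and −1.65 in control ES cells, −0.90, −1.52, −1.30 and −1.08 in KD33 ES cells, 3.55, 3.36, 3.24 and 3.41 in control EB9, and 3.57, 3.84, 3.73 and 3.95 in KD33 EB9. In EB9 each KD33 array lay above each control array, with 3.57 next to 3.55; the ES groups overlapped. Its rise from ES cells to EB9 was 30.5-fold in controls (log2 4.93, SE 0.14, adjusted p = 1.63e-12) and 31.3-fold with KD33 (log2 4.97, SE 0.13, adjusted p = 6.28e-13). The KD33 difference was 0.34 in ES cells (SE 0.14, adjusted p = 0.0696) and 0.38 in EB9 (SE 0.13, adjusted p = 0.0673), and neither passed. With the slide as a block the EB9 difference passed (adjusted p = 0.0361), and within the 4 slides it was 0.02, 0.48, 0.49 and 0.54, lowest on the slide of KD33 EB9 replicate 1.

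Krt7, the type II keratin of ducts and glands, did not share the rise. It read −3.48, −3.70 and −3.72 in control ES cells, −3.02, −3.44, −3.34 and −2.99 in KD33 ES cells, −3.18, −3.18, −3.58 and −3.47 in control EB9, and −3.35, −2.69, −2.97 and −2.82 in KD33 EB9. Control ES arrays lay below all 8 KD33 arrays, and the other groups overlapped. From ES cells to EB9 it differed by 0.28 in controls (95% interval −0.08 to 0.64, adjusted p = 0.143), far under the changes of Krt8, Krt18 and Krt19. The KD33 difference was 0.43 in ES cells (SE 0.16, adjusted p = 0.0538) and 0.40 in EB9 (SE 0.15, adjusted p = 0.106). Without KD33 EB9 replicate 1 these became 0.43 (adjusted p = 0.0255) and 0.53 (adjusted p = 0.0301).

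Cdh1 was the member that fell most. Its probe was printed 10 times on each array, and the log2 signals of those spots had an SD of 0.04 to 0.13 on the 15 arrays. It read 2.99, 3.06 and 3.07 in control ES cells, 2.97, 3.12, 3.10 and 2.99 in KD33 ES cells, 0.36, 0.81, 0.38 and 0.28 in control EB9, and 0.07, 0.77, 0.53 and 0.49 in KD33 EB9. Both EB9 groups lay wholly below both ES groups, and at each stage control and KD33 arrays overlapped. The fall from ES cells to EB9 was 5.98-fold in controls (log2 −2.58, SE 0.15, adjusted p = 2.10e-09) and 5.97-fold with KD33 (log2 −2.58, SE 0.14, adjusted p = 8.05e-10). KD33 against control differed by 0.01 in ES cells (95% interval −0.32 to 0.33) and 0.01 in EB9 (95% interval −0.29 to 0.31).

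Epcam read 1.02, 1.07 and 1.14 in control ES cells, 1.18, 1.25, 1.18 and 1.20 in KD33 ES cells, 0.25, 0.56, 0.20 and 0.11 in control EB9, and −0.12, 0.58, 0.33 and 0.28 in KD33 EB9. The lowest ES array lay above the highest EB9 array, so the stages did not overlap. Its fall was smaller than that of Cdh1, 1.73-fold in controls (log2 −0.79, SE 0.14, adjusted p = 0.000128) and 1.92-fold with KD33 (log2 −0.94, SE 0.13, adjusted p = 1.21e-05). In ES cells the 4 KD33 arrays lay just above the 3 control arrays, yet the difference of 0.13 did not pass (95% interval −0.16 to 0.43, adjusted p = 0.503). In EB9 the difference was −0.01 (95% interval −0.29 to 0.26).

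The claudins took opposite courses. Cldn4, a claudin of tight epithelia, read −1.35, −1.12 and −1.41 in control ES cells, −0.54, −0.73, −0.91 and −0.79 in KD33 ES cells, −2.52, −2.66, −3.18 and −3.08 in control EB9, and −2.55, −1.87, −2.09 and −1.96 in KD33 EB9. KD33 ES cells were highest, then control ES cells, and the EB9 groups overlapped only through KD33 EB9 replicate 1. It fell from ES cells to EB9 by 2.96-fold in controls (log2 −1.57, SE 0.18, adjusted p = 3.35e-06) and 2.59-fold with KD33 (log2 −1.37, SE 0.17, adjusted p = 5.19e-06). Cldn4 was the only 1 of the 10 genes whose rise with KD33 passed at both stages. It was 1.46-fold in ES cells (log2 0.55, SE 0.18, adjusted p = 0.0307) and 1.67-fold in EB9 (log2 0.74, SE 0.17, adjusted p = 0.0126). Krt7 and Krt19 were also higher with KD33 at both stages, and neither passed at either stage. Its second probe gave 0.54 in ES cells, which did not pass (adjusted p = 0.0685), and 0.78 in EB9, which did (adjusted p = 0.0237), though not without replicate 3 or 4 of either EB9 group (adjusted p up to 0.0753). Within the 4 slides the EB9 difference of the brighter probe was −0.03, 0.80, 1.09 and 1.12, and it did not pass in a fit of the EB9 arrays alone (adjusted p = 0.0784).

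Cldn7, a claudin that also lies along the basolateral membrane, read 1.23, 1.08 and 1.14 in control ES cells, 2.05, 1.84, 1.83 and 2.00 in KD33 ES cells, 2.41, 2.13, 1.88 and 2.09 in control EB9, and 1.61, 2.34, 1.91 and 2.11 in KD33 EB9. Control ES cells lay below all other arrays, and the other 3 groups overlapped. In controls it rose 1.97-fold from ES cells to EB9 (log2 0.98, SE 0.15, adjusted p = 5.42e-05). KD33 raised it 1.71-fold in ES cells (log2 0.78, SE 0.15, adjusted p = 0.00140), the largest knockdown difference among the 10 genes there. From KD33 ES cells to KD33 EB9 it differed by 0.06 (95% interval −0.24 to 0.37).

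Esrp1 read −0.80, −1.02 and −1.08 in control ES cells, −0.23, −0.53, −0.44 and −0.26 in KD33 ES cells, −1.01, −0.91, −1.32 and −1.15 in control EB9, and −1.32, −1.08, −1.19 and −1.02 in KD33 EB9. KD33 ES cells stood above the other 3 groups, which overlapped. KD33 raised it 1.52-fold in ES cells (log2 0.60, SE 0.11, adjusted p = 0.00100) and its second probe 1.62-fold (adjusted p = 0.00154). From ES cells to EB9 the brighter probe differed by −0.13 in controls (95% interval −0.37 to 0.11) and fell 1.73-fold with KD33 (log2 −0.79, SE 0.10, adjusted p = 1.07e-05). With KD33 the second probe differed by only −0.27 from ES cells to EB9 and did not pass (adjusted p = 0.0647). The probes also disagreed in controls, where the second rose by 0.33 (adjusted p = 0.0466), a call that was lost when any of 12 of the 15 arrays was left out.

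Grhl2 was the only 1 of the 10 genes whose fall with KD33 against control passed. Its brighter probe read −0.14, −0.31 and −0.28 in control ES cells, −0.81, −0.90, −0.91 and −0.80 in KD33 ES cells, −1.90, −1.58, −1.99 and −1.93 in control EB9, and −2.09, −1.77, −2.04 and −1.87 in KD33 EB9. Control ES cells were highest, KD33 ES cells intermediate, and both EB9 groups, which overlapped, lowest. KD33 lowered it 1.53-fold in ES cells (log2 −0.61, SE 0.10, adjusted p = 0.000427), and in EB9 the difference was −0.10 (95% interval −0.30 to 0.11). From ES cells to EB9 it fell 3.04-fold in controls (log2 −1.60, SE 0.10, adjusted p = 5.69e-09) and 2.13-fold with KD33 (log2 −1.09, SE 0.09, adjusted p = 1.27e-07). The dimmer probe, above background on few arrays outside control ES cells, passed in no comparison.

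**Figure D2:**
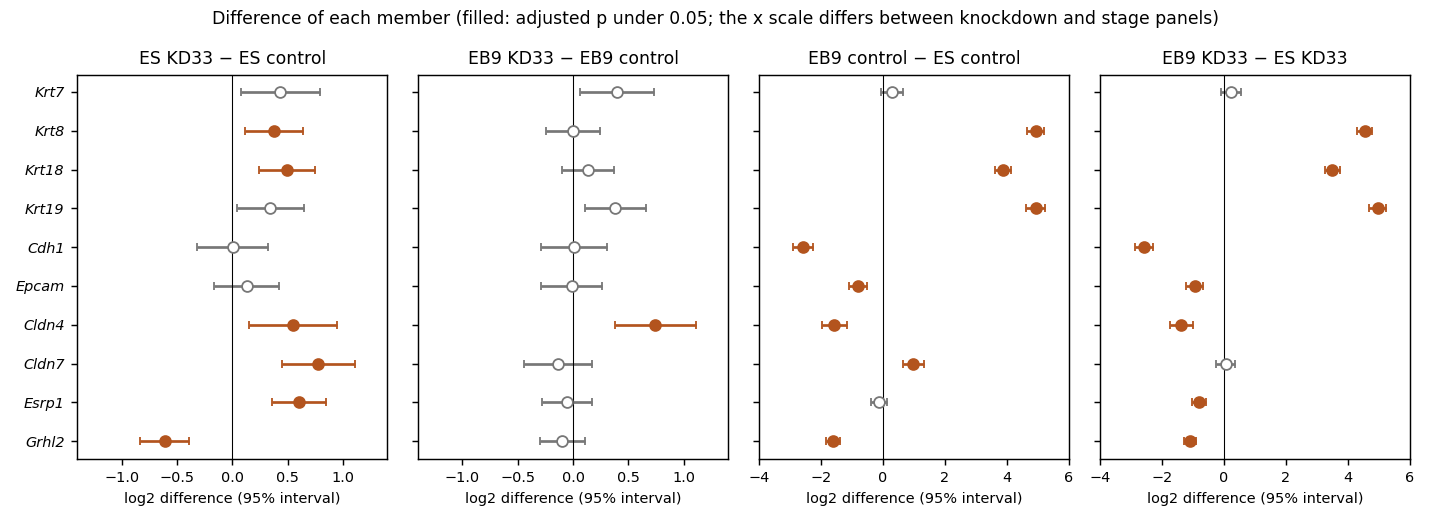
Log2 difference of each of the 10 genes in the 4 comparisons, by its brighter probe, with 95% intervals from the limma fit; filled points have an adjusted p under 0.05, and the axis of the left pair of panels is narrower than that of the right pair. Cldn4 is filled in both knockdown panels and Grhl2 lies left of 0 in ES cells, while Krt8, Krt18 and Krt19 lie at 3.50 to 4.97 in the stage panels.

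Knockdown in ES cells raised 5 of the 10 genes (Krt8, Krt18, Cldn4, Cldn7 and Esrp1) and lowered 1 (Grhl2). Over all genes 38.3% were called, 21.9% higher and 16.4% lower. The median of the 10 was 0.41 against 0.04 over all genes, the groups did not overlap for 8 of 10, against 49.6% of all genes, and 0 members changed by 2-fold or more, against 4.91%. Within slides 1 to 3 the difference was 0.31 to 0.42 for Krt8, 0.47 to 0.50 for Krt18 and 0.39 to 0.81 for Cldn4. It was 0.69 to 0.82 for Cldn7, 0.49 to 0.64 for Esrp1 and −0.68 to −0.58 for Grhl2. Its sign could not vary between slides, because the ES groups did not overlap for any of these 6 genes. With the slide as a block all 6 still passed. The calls of Krt8 and Cldn4 were the weakest. Cldn4 did not pass without KD33 ES replicate 1, 2 or 4 or control ES replicate 2 or 4 (adjusted p up to 0.105), and Krt8 did not without KD33 ES replicate 2, 3 or 4 or control ES replicate 2 or 3 (adjusted p up to 0.101).

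Markers of other cell types differed on the same ES arrays. Of 12 parietal endoderm markers 6 were lower and 0 higher with KD33, and their summed linear signal was 54.3 to 60.8 times the 75th percentile against 73.1 to 80.2 in control ES cells. Of 19 visceral endoderm markers 2 were higher and 6 lower, with a summed signal of 11.3 to 11.6 against 8.58 to 9.43. Bright genes weigh most in such a sum. The mean log2 level of the 19 was instead lower with KD33, −3.38 to −3.31 against −3.31 to −3.14, and their median difference was −0.19. Of 23 mesenchyme and repressor genes 3 were higher and 3 lower, with 73.9 to 83.1 against 63.5 to 66.5. The groups did not overlap in these 3 sums. They did in the sum of 15 pluripotency markers (398 to 468 against 434 to 447). The sums of 12 trophoblast markers and of 11 surface ectoderm markers (5.09 to 5.76 against 4.90 to 5.85) overlapped too. This contrast depends on the summary. By mean log2 level the trophoblast list did not overlap, at −2.37 to −2.33 with KD33 against −2.26 to −2.23 in control ES cells. The part of these cell types in the members' ES differences was not tested.

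Knockdown in EB9 raised 1 of the 10 genes, Cldn4, and lowered 0, where 14.7% of all genes were called, 7.74% higher and 6.98% lower. It changed 0 of the 10 by 2-fold or more, against 1.39% of all genes, and the groups did not overlap for 1 of 10, Krt19, against 15.7%. By limma at an unadjusted p under 0.05, 3 of the 10 were higher (Krt7, Krt19 and Cldn4) and 0 lower. By the size of its difference Cldn4 stood at percentile 95.4 of all genes, Krt7 at 83.6 and Krt19 at 82.7. Krt8, Cdh1 and Epcam stood at or below percentile 5.0. The count was 2 with the slide as a block, 2 without KD33 EB9 replicate 1, KD33 ES replicate 1 or KD33 ES replicate 2, and 0 when only the EB9 arrays entered the fit. Visceral endoderm markers moved beside it: 8 of 19 were lower and 0 higher in KD33 EB9, with a summed linear signal of 48.1 to 75.5 times the 75th percentile against 58.3 to 71.3 in control EB9. Of the 19, 0 passed in a fit of the EB9 arrays alone, and 2 without KD33 EB9 replicate 3 or replicate 4. Of 12 parietal endoderm markers 2 were higher and 4 lower, with a summed signal of 177 to 196 against 161 to 176. The mean log2 level of the 12 was instead lower with KD33, 1.09 to 1.34 against 1.39 to 1.51, and their median difference was −0.16. Of the 12, 1 passed in a fit of the EB9 arrays alone. Of 15 pluripotency markers 5 were higher and 1 lower in KD33 EB9 (median difference 0.13). Of 23 mesenchyme and repressor genes 0 were higher and 3 lower, and of 12 trophoblast markers 1 was higher and 3 lower. Of 11 surface ectoderm markers 0 were higher and 1 lower. The counts of these 4 lists come from the fit of all 15 arrays. The part of these cells in the members' values was not tested.

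The knockdown difference itself differed between the stages for 3 of the 10 genes, 1 higher and 2 lower in EB9, where 29.5% of all genes were called, 12.6% higher and 16.8% lower. By 2-fold or more it differed for 0 of the 10, against 5.33% of all genes. For Cldn7 the KD33 difference was lower in EB9 than in ES cells (log2 −0.92, SE 0.21, adjusted p = 0.00530), and so was that of Esrp1 (log2 −0.66, SE 0.15, adjusted p = 0.00633). For Grhl2 it was less negative in EB9 (log2 0.51, SE 0.14, adjusted p = 0.0141), a call that did not hold with arrays scaled on their median (adjusted p = 0.0772). Krt8 was split by probe: −0.37 by the brighter one (adjusted p = 0.113) and −0.51 by the second (adjusted p = 0.0195), which did not pass without control ES replicate 4 (adjusted p = 0.0588) or with median scaling (adjusted p = 0.0687). For Cldn4 the difference of 0.19 did not pass (95% interval −0.35 to 0.73), nor did those of Krt7, Krt18, Krt19, Cdh1 and Epcam.

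Other genes of the same pathways gave a mixed stage pattern. Of 15 other keratins measured, 4 were higher and 5 lower in control EB9 than in control ES cells (median −0.12). Krt42, a type I keratin, rose 11.9-fold (log2 3.58, SE 0.11, adjusted p = 4.64e-12), and Krt17, a type I keratin of stressed and appendage epithelium, fell 18.5-fold (log2 −4.21, SE 0.13, adjusted p = 2.54e-12). In ES cells, where KD33 raised Krt8 and Krt18, it raised 0 and lowered 2 of these 15, against 21.9% and 16.4% of all genes. Krt17 fell by 0.88 (adjusted p = 0.000129) and Krt42 fell by 0.40 (adjusted p = 0.0143). In EB9 KD33 raised 3 of the 15, against 7.74% of all genes: Krt42 by 0.47 (adjusted p = 0.0106), Krt10 by 0.29 (adjusted p = 0.00576) and Krt20 by 1.00 (adjusted p = 0.0107). With the slide as a block 5 of the 15 were higher and 0 lower in EB9, and 1 higher and 3 lower in ES cells. In ES cells Krt42 did not pass with normexp background correction, by which it fell by 0.21 (adjusted p = 0.190), with the authors' deposited values (adjusted p = 0.148), with arrays scaled on their median (adjusted p = 0.101) or without control ES replicate 2 (adjusted p = 0.0740). In EB9 median scaling ended the calls of Krt42 (adjusted p = 0.0999) and Krt10 (adjusted p = 0.134), and a fit of the EB9 arrays alone those of Krt42 (adjusted p = 0.0580) and Krt20 (adjusted p = 0.0822). The Krt20 difference was 0.60 with normexp correction and 0.55 with the authors' deposited values, and passed in both.

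Of 24 other tight junction genes, 15 were higher and 7 lower in control EB9 (median 0.59). Cldn5, the claudin of endothelium, rose 87.1-fold (log2 6.44, SE 0.15, adjusted p = 2.37e-13), in contrast to the fall of Cldn4. KD33 in ES cells raised 4 and lowered 4 of the 24, against 21.9% and 16.4% of all genes. Cldn5 rose by 1.05 there (adjusted p = 0.000120). Of 10 desmosome genes, 4 were higher and 4 lower in control EB9; desmoplakin (Dsp), which anchors keratin filaments at desmosomes, rose 10.8-fold (log2 3.44, SE 0.11, adjusted p = 4.47e-12) and envoplakin (Evpl) fell 12.7-fold (log2 −3.66, SE 0.08, adjusted p = 1.65e-13). KD33 in EB9 raised 2 of the 10, against 7.74% of all genes: Dsp by 0.46 (adjusted p = 0.0101) and Evpl by 0.29 (adjusted p = 0.0219). However, 0 of the 10 passed there with median scaling or in a fit of the EB9 arrays alone (adjusted p for Dsp and Evpl from 0.0599 to 0.207). With the authors' deposited values Evpl differed by 0.18 (adjusted p = 0.0617).

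The fall of Cdh1 stood beside large rises of other cadherins. Of 16 cadherin and adherens junction genes, 10 were higher and 4 lower in control EB9 (median 0.70). Cdh2 (N-cadherin), the cadherin of mesenchyme and neural tissue, rose 142-fold (log2 7.15, SE 0.11, adjusted p = 9.73e-15), and Cdh3 (P-cadherin) rose 2.80-fold (log2 1.48, SE 0.14, adjusted p = 2.83e-07). KD33 raised Cdh2 by 1.10 in ES cells (SE 0.11, adjusted p = 8.43e-06), where Cdh1 differed by 0.01. In EB9 KD33 raised Cdh3 by 0.51 (SE 0.13, adjusted p = 0.0185), a call lost with median scaling (adjusted p = 0.0944) and in a fit of the EB9 arrays alone (adjusted p = 0.112). Nectin1, an immunoglobulin-like junction protein, was lower with KD33 at both stages: it fell by 0.59 in ES cells (adjusted p = 0.000313) and fell by 0.56 in EB9 (adjusted p = 0.00164).

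The relatives of Grhl2 and Esrp1 fell with stage. Of 25 other epithelial regulators and surface genes, 16 were lower and 6 higher in control EB9 (median −1.55, or −1.42 with a gene below background set at its bound). Grhl1 fell by 2.09 (SE 0.10), Grhl3 fell by 1.71 (SE 0.13) and Esrp2 fell by 1.74 (SE 0.12), with adjusted p = 4.62e-10, 2.78e-08 and 1.61e-08. In ES cells with KD33 Esrp2 fell by 1.17 (adjusted p = 1.11e-05) while Esrp1 rose by 0.60, and Grhl3 fell by 0.50 (adjusted p = 0.00736) where Grhl2 fell by 0.61. In EB9 KD33 raised Grhl3 by 0.44 (adjusted p = 0.0246), and the difference between stages was 0.94 for Grhl3 (adjusted p = 0.00135) and 1.21 for Esrp2 (adjusted p = 0.000186). Median scaling ended the calls of Grhl3 within ES cells (adjusted p = 0.0551) and within EB9 (adjusted p = 0.158), and a fit of the EB9 arrays alone ended the latter too (adjusted p = 0.127).

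**Figure D3:**
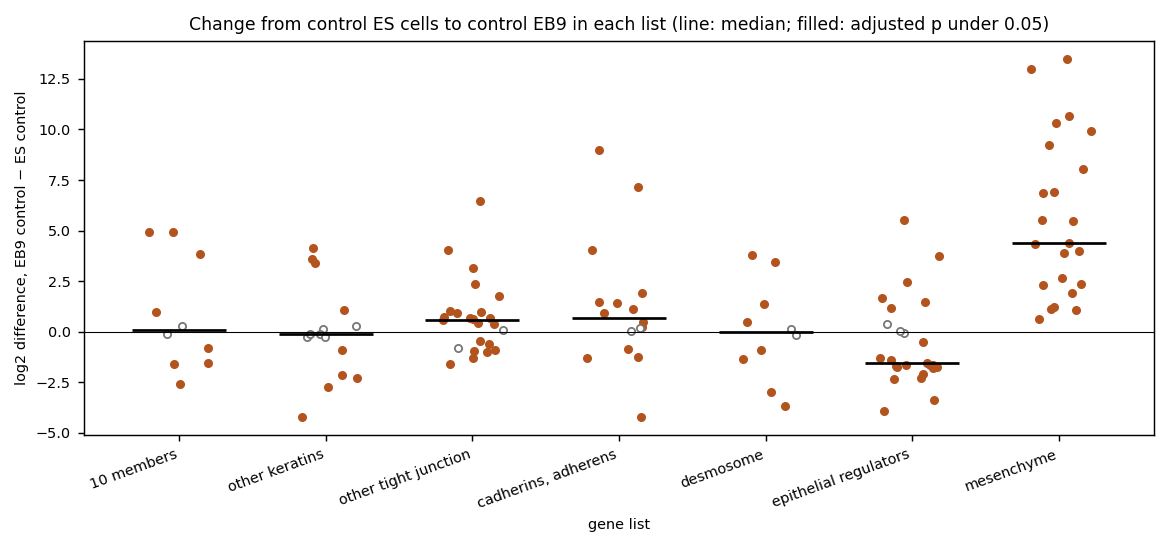
Log2 difference between control EB9 and control ES cells for the 10 genes and for 6 other gene lists; each point is 1 gene by its brighter probe, filled where the adjusted p was under 0.05, and lines are medians of the fitted values. The 10 genes spread on both sides of 0, as do the other keratin and junction lists, while the mesenchyme list lies wholly above 0.

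The repressors of the epithelial programme rose beside the keratins. Of 23 mesenchyme and repressor genes, 23 were higher in control EB9 (median 4.39). Snai2 rose by 4.33 (SE 0.05, adjusted p = 1.39e-15), Zeb2 by 5.45 (SE 0.08, adjusted p = 4.23e-15), Zeb1 by 2.37 (SE 0.12, adjusted p = 3.70e-10) and Snai1 by 1.93 (SE 0.11, adjusted p = 2.35e-09). With KD33 Zeb1 fell by 0.43 in ES cells (adjusted p = 0.0110) and Snai1 fell by 0.39 in EB9 (adjusted p = 0.0254), and neither call held with median scaling (adjusted p = 0.0978 and 0.0859). That of Snai1 was also lost in a fit of the EB9 arrays alone (adjusted p = 0.109). Other cell types moved with the stage as well. Of 12 parietal endoderm markers 8 were higher and 2 lower (median 1.90), with a summed linear signal of 73.1 to 80.2 in control ES cells and 161 to 176 in control EB9. Of the visceral endoderm markers 18 of 19 were higher, with a summed linear signal of 8.58 to 9.43 in control ES cells and 58.3 to 71.3 in control EB9, against 23.4 to 24.0 and 174 to 203 for the 10 genes. Of the 19, 4 lay above background on no control ES array, as did 7 of the 23 mesenchyme genes. Trophoblast markers were split, with 4 of 12 higher and 4 lower, and of 11 surface ectoderm markers 4 were higher and 3 lower. The part of each cell type in the members' values was not tested.

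Within groups the 10 genes moved together from array to array in EB9. After each group's mean was removed, 45 of the 45 pairs among them correlated above 0 over the 8 EB9 arrays, with a median r of 0.78 and a lowest of 0.37. Over the 7 ES arrays 53.3% of the pairs did, with a median of 0.27. The share over all gene pairs was not computed for either stage alone. Over all 15 arrays 45 of 45 pairs were above 0 (median 0.64), while 51.6% of all gene pairs were (median 0.02), and with the slide means also removed the medians were 0.86 and 0.03. Cdh1 and Epcam were the closest pair (r = 0.98 over 15 arrays), then Krt18 and Cldn7 (0.94), and Cdh1 and Krt19 the loosest (0.03). These points share array, labelling and scaling, and are given as a description.

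**Figure D4:**
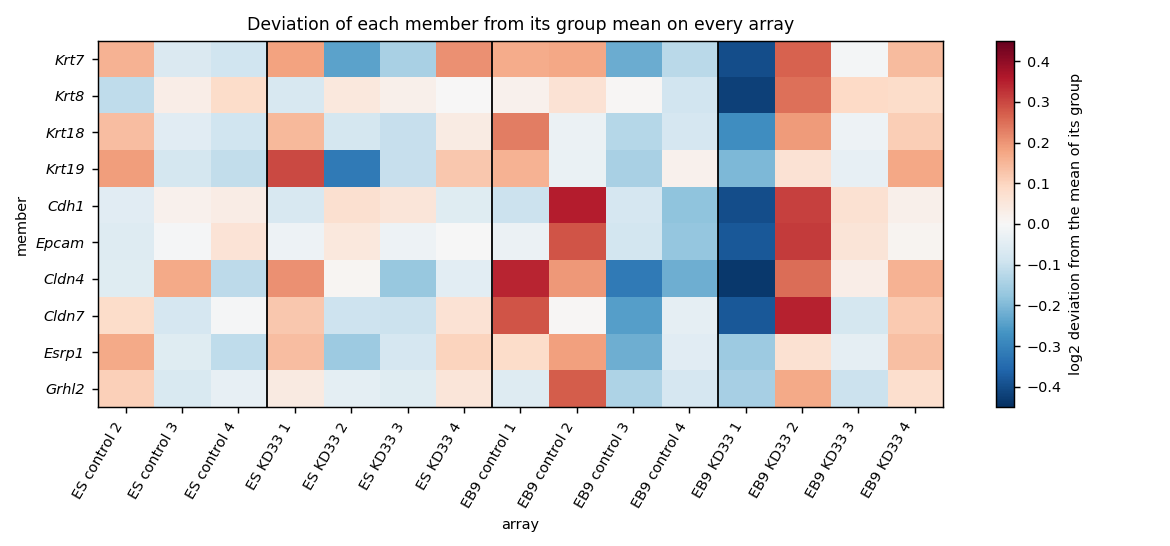
Deviation of each of the 10 genes from the mean of its group on every array, in log2 units; columns are arrays, black lines divide the groups, and red is above and blue below the group mean. KD33 EB9 replicate 1 is blue for 10 of 10 genes, and replicates 2 and 4 of that group are red for 10 of 10.

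KD33 EB9 replicate 1 lay below its group mean for 10 of the 10 genes, with deviations of −0.43 to −0.15 (mean −0.32). KD33 EB9 replicates 2 and 4 lay above it for 10 of 10 (means 0.22 and 0.10), while over all genes replicate 1 deviated by −0.06 and replicate 2 by 0.02. Without replicate 1, 42 of 45 pairs over the remaining 7 EB9 arrays were above 0, with a median of 0.65 and a lowest of −0.19. Leaving out any other EB9 array kept 45 of 45. Marker lists deviated on the same arrays: the visceral endoderm list by −0.52 on replicate 1 and 0.63 on replicate 2, the other tight junction list by −0.19 and 0.20, and the mesenchyme list by 0.17 and −0.21. Lists of other cell types also shared the direction of the 10 genes: surface ectoderm (−0.20 and 0.24), trophoblast (−0.18 and 0.19) and pluripotency (−0.15 and 0.16). So did the epithelial regulators (−0.23 and 0.18), the other keratins (−0.20 and 0.13) and parietal endoderm (−0.08 and 0.15). The cadherin and adherens junction list moved little (−0.01 and 0.04), and the desmosome list gave 0.02 and −0.12. Their part in the members' deviations was not tested.

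The profiles over the 15 arrays placed the 10 genes with different company. For Krt8 the most similar gene was the hair keratin Krt85 (Pearson r = 0.999), then Efna1 and Bin1. Krt18 was closest to Krt19 (r = 0.998). Cdh1 was closest to Dennd1c, Capsl and Ell3 (r = 0.998 each), Epcam to Pls1, Crb3 and Mal (r = 0.988 each), and Grhl2 to Sdr42e1 (r = 0.998). Such values are common where the stage sets the profile: 20.6% of all genes had r above 0.9 with Krt8 and 25.3% with Cdh1. The genes most similar to Krt7 and Cldn7 were less so, with Heatr6 for Krt7 (r = 0.857) and Ablim1 for Cldn7 (r = 0.945). For these members 0% and 0.0853% of genes were above 0.9. Atp8b3 led for Esrp1 (r = 0.970), Adgrb2 for Cldn4 (r = 0.977) and Slc16a3 for Krt19 (r = 0.999).

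The promoters of members that rose and of members that fell were set side by side, since the repressors that rose are known to bind the E-box CACCTG. RefSeq promoters (build GRCm38.p6, the 250 bases before the start site) were found for 6 of the 10 genes: Krt7, Krt8, Krt18, Epcam, Cldn4 and Cldn7, the last with 2. Krt19, Cdh1, Esrp1 and Grhl2 had none, so the steep rise of Krt19 and the fall of Cdh1 are not covered. Krt8 lies at chr15:102004343-102004592 on the minus strand, Krt18 at chr15:102027966-102028215 on the plus strand, Epcam at chr17:87635729-87635978 on the plus strand and Cldn4 at chr5:134946935-134947184 on the minus strand. The lines give the strand of the gene, 5′ to 3′, and capitals mark every match, on either strand, to CACCTG, to the AP-2 motif GCCNNNGGC or to the GC box GGGCGG.
Krt8: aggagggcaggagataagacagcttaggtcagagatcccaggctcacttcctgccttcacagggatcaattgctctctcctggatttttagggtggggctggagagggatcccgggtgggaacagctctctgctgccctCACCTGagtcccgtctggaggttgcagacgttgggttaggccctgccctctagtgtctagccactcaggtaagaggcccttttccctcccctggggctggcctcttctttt
Krt18: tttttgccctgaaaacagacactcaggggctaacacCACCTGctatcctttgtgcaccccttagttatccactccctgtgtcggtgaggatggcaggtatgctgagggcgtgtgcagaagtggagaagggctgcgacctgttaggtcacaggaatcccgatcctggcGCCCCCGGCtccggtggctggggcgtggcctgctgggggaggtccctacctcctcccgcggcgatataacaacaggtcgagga
Epcam: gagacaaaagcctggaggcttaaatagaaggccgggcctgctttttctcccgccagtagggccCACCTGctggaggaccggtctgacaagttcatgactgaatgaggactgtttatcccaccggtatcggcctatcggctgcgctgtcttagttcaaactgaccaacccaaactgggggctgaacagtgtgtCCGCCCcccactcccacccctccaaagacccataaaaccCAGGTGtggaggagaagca
Cldn4: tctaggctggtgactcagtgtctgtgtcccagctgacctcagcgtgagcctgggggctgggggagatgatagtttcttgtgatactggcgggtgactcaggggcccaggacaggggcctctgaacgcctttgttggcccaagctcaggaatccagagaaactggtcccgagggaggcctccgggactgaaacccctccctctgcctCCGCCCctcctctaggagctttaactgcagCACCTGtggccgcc
CACCTG lay in 1 promoter of each of the 6 genes but not in the first promoter of Cldn7. Of all 32851 RefSeq promoters of this length, 17.2% held it. Relative to the start site its leftmost base was at −44 in Krt7, −111 in Krt8, −214 in Krt18, −187 and −19 in Epcam, −14 in Cldn4, and −97 and −57 in the second promoter of Cldn7. Krt8 and Krt18, which rose from ES cells to EB9, held it as did Epcam and Cldn4, which fell. GGGCGG lay in Krt7, Epcam, Cldn4 and the second promoter of Cldn7 (32.7% of all promoters), and GCCNNNGGC in Krt7 and Krt18 (13.7%); in Krt7 these 2 motifs overlap at 1 place. The grainyhead-like motif AACNGGTT, which 1.79% of promoters hold, and TATAAA (12.4%) matched in 0 of the 7 promoters. The G and C content was 58.0% in Krt8, 60.4% in Krt18, 56.4% in Epcam and 62.0% in Cldn4, against a median of 52.4% over all promoters. A match is a run of letters and does not show binding.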

How the data were processed

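Total RNA of 15 samples was labelled with Cy3 and hybridised to Agilent arrays, per the labels. Per the file headers, Feature Extraction 10.7.3.1 read each scan. Each deposited file gives a processed intensity for every spot, which is background-corrected and not scaled between arrays. The log2 values that the authors deposited in a joint matrix served as an alternative only. No source used here states how they were made; normexp correction with an offset of 50 and quantile normalisation gave the same values within 0.000154.

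Control spots (leaving 43020 of 44397 features) and outlier features were dropped, spots of a probe were averaged, and log2 processed signal was taken minus each array's 75th percentile. Of 39429 probes, 27248 were kept (well above background on at least 3 arrays of a group), and each of 21184 genes was counted by its brightest kept probe. limma 3.58.1 in R 4.3.3 fitted the 4 group means over 15 arrays, two-sided, with Benjamini-Hochberg adjustment; the fit was tested on simulated data. The members and gene lists were chosen with earlier results of these data known. From each list the up to 3 genes with the lowest adjusted p in a comparison could be named, besides Cdh2, Cdh3, Grhl1, Grhl3, Esrp2, Snai1, Snai2, Zeb1 and Zeb2, and for each member the 3 most correlated genes. Arrays that shared a slide across groups deviated together (21 pairs, r of 0.21 to 0.60 across genes); those sharing a replicate number but no slide did not always (9 pairs, −0.56 to 0.35). Alternatives were other blocks, background corrections, scalings, filters and array weights, the groups compared alone, and leaving out each array. The number of arrays limits the precision.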

Additional observations from a re-analysis of the deposited data

Results flagged for a closer look

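For 3 of the 10 genes the effect of KD33 differed between EB9 and ES cells by a test of the difference itself. That test called 29.5% of all genes, so 3 of 10 is close to the background. Cldn7 differed by −0.92 (SE 0.21, limma adjusted p = 0.00530), with 0.78 in ES cells and −0.14 in EB9. The difference for Esrp1 was −0.66 (SE 0.15, adjusted p = 0.00633), from 0.60 in ES cells to −0.05 in EB9. For Grhl2 it was 0.51 (SE 0.14, adjusted p = 0.0141), from −0.61 in ES cells to −0.10 in EB9, and this call did not hold with median scaling (adjusted p = 0.0772). In ES cells all 4 KD33 arrays lay on 1 side of all 3 control arrays for each of these genes, and in EB9 the groups overlapped for each. Over all genes the groups did not overlap for 49.6% in ES cells and 15.7% in EB9. A single array far from the others of its group, by Dixon's criterion at the 95% level, was found in 0 of the 30 combinations of a gene and a group of 4 arrays.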

How the results depend on the processing

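No called change of a member reversed its direction under any alternative or left-out array. The number of members called stayed within 1.5 times its value for ES cells with KD33 and for both stage comparisons. In EB9, where KD33 changed 1 member, it was 2 with the slide as a block, 3 with array weights and 0 when only the EB9 arrays were fitted, and it ranged from 1 to 2 when arrays were left out in turn. For the difference between stages it was 5 with array weights against 3. Leaving out arrays gave 4 to 7 members in ES cells, 8 in the control stage comparison, 8 to 9 in the KD33 one and 3 to 4 for the difference. The replicate number follows the slide in 3 of the 4 groups and is offset from it in control ES cells, and same-numbered samples did not all deviate together; with the replicate number as a block the counts were 5, 1, 8, 8 and 3, and the call of Cldn4 in ES cells (adjusted p = 0.0590) and that of the second Esrp1 probe between control stages (adjusted p = 0.0545) were lost. Krt7 in ES cells passed under 5 alternatives, among them the authors' values (adjusted p = 0.0459) and array weights (adjusted p = 0.000151). Of the changes between control stages given for genes outside the 10, each passed under every alternative and without any array, as did those with KD33 of Cdh2, Cldn5, Esrp2 and Krt17 in ES cells and of Nectin1 at both stages. Those of KD33 in EB9 were less stable: leaving out single arrays ended the calls of Cdh3 (adjusted p up to 0.0560), Evpl (up to 0.0665), Grhl3 (up to 0.0724) and Snai1 (up to 0.0785), and that of Krt42 in ES cells (0.0740). Median scaling moved the median difference of all genes between control stages from −0.14 to 0.02, and the genes called in EB9 from 3118 to 1311, and for the difference from 6239 to 3877. The causes were not tested.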
